A study of Mus musculus with 79 samples.

Results

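Chronic stress was examined here in the parvalbumin (PV) interneurons of the mouse medial prefrontal cortex. The libraries were chosen by their labels alone: all 19 libraries of PV neurons among the 79 of the study, 9 from stressed mice (U601 to U608 and U610) and 10 from control mice (U1 to U10). All mice were male C57Bl/6J. The stressed mice went through UCMS, the labels' name for 5 weeks of changing mild stressors such as restraint, forced bath, predator odor, wet bedding, a tilted cage and disrupted light cycles, and behavioural tests took place alongside it. They lived alone, whereas control mice lived in groups with littermates, so stress and single housing cannot be told apart in any value below. Each library held the RNA of 130 cells of 1 mouse, found with RNAscope probes in 12 µm sections and cut out by laser, and was prepared from total RNA with a strand-keeping kit meant for picogram amounts (SMARTer Pico). No PV library of mouse U609 was analysed, and the ages of the mice are not stated in the labels. The comparison asks how the transcripts of this 1 neuron type differ after chronic stress.

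PV neurons are fast-spiking inhibitory cells. Kv3 potassium channels let them fire brief action potentials in rapid trains, and their basket and chandelier endings release GABA onto the cell bodies and axon initial segments of pyramidal neurons. Many of them are wrapped in a perineuronal net, and their firing demands a dense supply of mitochondria. In prefrontal cortex they set the timing of pyramidal cell output.

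The label held against its markers. Pvalb, the calcium buffer that defines the type (chr15:78191114-78206400 on GRCm38, minus strand), had 816 ± 422 normalized counts (SD, n = 10) in control PV libraries. Its mean in the control libraries of the other types ran only from 7.09 in pyramidal to 37.9 in somatostatin (SST) neurons. A normalized count is a read count divided by the library's size factor, so values compare between libraries but not, without gene length, between genes. Pyramidal RNA was present: Slc17a7, which loads glutamate into the vesicles of pyramidal cells, averaged 2819 ± 743 (SD, n = 10) in control and 2603 ± 854 (SD, n = 9) in UCMS PV libraries, against 14218 ± 2014 (SD, n = 10) in control pyramidal libraries. The PV libraries held 5241174 to 13305797 reads and 9033 to 18408 genes with at least 1 read.

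Control library U3 stood apart. It had the fewest reads and the fewest genes of the 19 and the lowest median correlation with the others, at 0.504, and 982 of 7323 well-measured genes had no read in it, where the next most was 286. A well-measured gene here is a protein-coding gene with an ordinary symbol, a mean of at least 100 and a read in at least 17 of the 19 libraries. A gene that is absent from U3 alone raises its UCMS-to-control difference, and other single libraries weighed on some genes too. Where leaving out 1 library changed the sign of a fold change or moved it by over 1.5 times, and the fold change was at least 0.2 in size or its unadjusted p under 0.05, the value without that library, or for more than 3 such libraries the range, stands beside it. A list median is followed by its value without U3 where that moved it by over 0.1 or changed its sign.

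Across all genes, no difference between stressed and control PV neurons passed the test. Of 16847 genes, limma called 0 at an adjusted p under 0.05 (0.0% of those tested), and the smallest adjusted p was 0.982. The unadjusted p was under 0.05 for 393 genes with higher values in UCMS (2.33%) and for 237 with lower values (1.41%), 630 in all. The word nominal below marks such a gene, and none of them held after adjustment. In no gene did the 9 UCMS values all lie above the 10 control values (0.0%), and in no gene did they all lie below (0.0%). A looser description, all 9 UCMS libraries above the control median, was met by 137 genes (0.813%), and all 9 below it by 181 (1.07%).

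The lean towards higher values depended on the method and on U3. Without U3 the nominal genes were 348 higher and 330 lower, and the count test of edgeR, run on whole reads recovered from the values, gave 399 higher and 585 lower among 984, with 0 genes called and a smallest adjusted p of 0.0654. DESeq2 gave 254 higher and 407 lower among 661 and called 56 genes (0.332%), 16 higher and 40 lower, of which 46 had a read in at most 4 of the 19 libraries. The smallest adjusted p of DESeq2 was 1.29e-16. Its called genes with reads in more libraries are not described here. When all 8 groups of the study were fitted together with the mouse as a random replicate block, 1 gene passed: Gm16287, annotated as an antisense gene, with no read in 9 of 10 control and 3 of 9 UCMS libraries. Without UCMS library U601, 1 gene passed, mt-Atp6, which is described below. The median log2 fold change of all genes was 0.048, with 53.0% of genes positive, and -0.015 without U3. All fold changes here are UCMS minus control on the log2(normalized count + 4) scale. This scale can understate changes of genes with few reads. For Gm16287 it gave 2.88, where the log2 ratio of mean counts was 6.12. Where a few libraries of an arm lay near 0, it gave larger changes than that ratio. Examples described below are Map3k1, at 2.18 against 1.33, Necab1, at 2.07 against 0.56, and Crhbp, at 1.69 against 0.69.

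How small a difference these libraries could bound varied with the level of the gene. Among the 1350 genes with a mean of at least 1000, all had reads in every library, the median SE was 0.20, and for 1323 (98%) the 95% interval lay within a 2-fold change in either direction. For 886 of them (65.6%) it lay within 1.5-fold. Among the 7029 genes with means from 100 to 1000 the median SE was 0.60 and 1370 intervals (19.5%) lay within 2-fold. Among the 8468 genes below a mean of 100, the median SE was 0.92, 0.425% had a read in every library and no interval was that narrow. The widening spread towards low genes is the main feature of the plot of fold change against level.

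**Figure D1:**
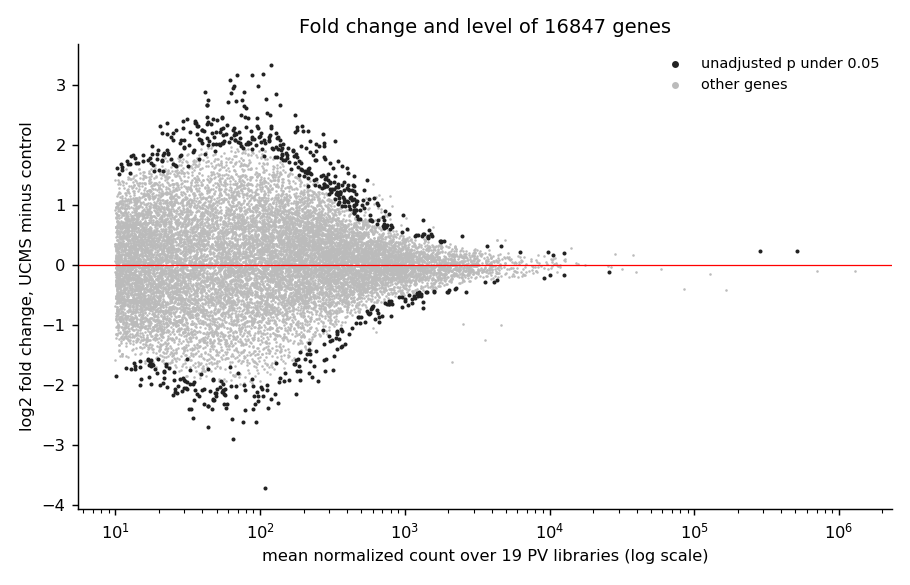
Log2 fold change (UCMS minus control, vertical) against the mean normalized count over the 19 PV libraries (horizontal, log scale) for 16847 genes; black points have an unadjusted p under 0.05. The spread narrows from left to right, and the black points form the outer edge at each level.

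Among the genes that make a PV neuron fast-spiking and inhibitory, the abundant ones lay close together in the 2 arms. Values of a gene are given below as the lowest, median and highest normalized count of the 9 UCMS and of the 10 control libraries, and a fold change is followed by its SE. Gad1, the main enzyme of GABA synthesis, had 9306, 9926 and 12796 in UCMS and 7683, 9827 and 13854 in control libraries. The UCMS range lay inside the control range, and the log2 fold change was 0.042 ± 0.081, with a 95% interval of -0.12 to 0.20. Gad2, the second GABA-synthesizing enzyme, ran 1950.1, 3192 and 4612 in UCMS and 1864, 2879 and 4165 in controls, a fold change of 0.22 ± 0.15 with overlapping arms. Slc32a1, which loads GABA into vesicles, ran 869.7, 1099.9 and 1546 against 876, 1303 and 1835, with -0.17 ± 0.23. In the 8 genes of GABA synthesis, loading, uptake and breakdown, 4 of 8 were positive, the median was 0.013 (-0.037 without U3), 7 intervals lay within 2-fold and none was nominal. The lowest was Aldh5a1, which completes GABA breakdown, at -0.23 ± 0.28 (-0.36 without U604 and -0.077 without U608 and -0.10 without U10).

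Pvalb itself ran 412, 986 and 1354 in UCMS and 265, 743 and 1696 in controls. Both arms spread widely and overlapped. The fold change of 0.14 ± 0.29 has an interval of -0.43 to 0.71, so a change of a size inside that interval was not excluded by these libraries. Fewer PV cells in a sample and less of the transcript per cell cannot be told apart in such pooled cells.

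**Figure D2:**
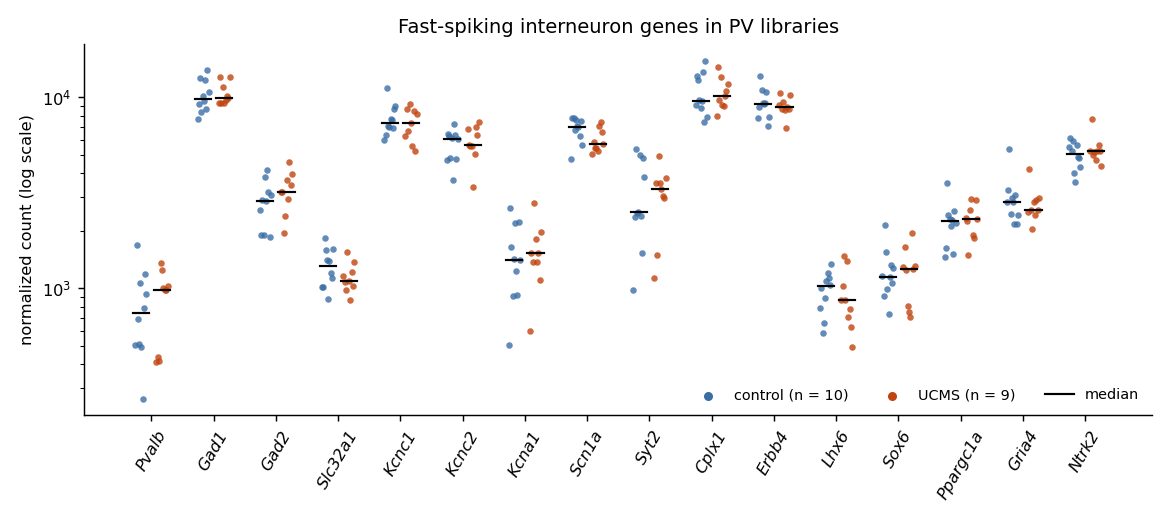
Normalized counts (log scale) of 16 genes of fast-spiking interneurons in each PV library; blue points are the 10 control and orange points the 9 UCMS libraries, and black bars are medians. The arms overlap in every gene shown, and the spread is narrow for Gad1, Scn1a and Erbb4 and wide for Pvalb and Syt2.

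Kv3 and Kv1 channels, which shape the brief spike, gave 9 of 13 positive members and a median of 0.090. Kcnc1 (Kv3.1) ran 5212, 7311 and 9256 in UCMS and 5965, 7351 and 11148 in controls, at -0.090 ± 0.094 with an interval of -0.28 to 0.095. Kcnc2 (Kv3.2) ran 3381, 5627 and 7387 against 3708, 6060.1 and 7248, at 0.046 ± 0.11. In both, the UCMS and control medians lay close together and the ranges overlapped. Kcns3, a silent subunit prominent in PV cells, was at 0.66 ± 0.36 (0.42 without U3), and Kcna1 at 0.096 ± 0.21.

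Among the other potassium, HCN and leak channels, 13 of 29 were positive and the median was -0.027. Kcnk9, a leak channel of the TASK family, had reads in 3 of 9 UCMS libraries, the highest at 33.1, and in 8 of 10 controls, with a median of 56 and a maximum of 859.5. All UCMS libraries lay below the control median and the arms still overlapped, at a fold change of -2.62 ± 1.01. Kcnn3, a small-conductance calcium-activated channel, leaned the other way at 2.02 ± 1.02, from a UCMS median of 41.2 and a control median of 2.49. Both are low genes that were nominal and did not pass adjustment.

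Sodium channel genes had 6 of 11 positive members and a median of 0.027. Scn1a, which encodes Nav1.1, the sodium channel on which PV firing depends, ran 5079.8, 5703 and 7397 in UCMS and 4781, 7032 and 7834 in controls. In 7 of 9 UCMS libraries it lay below the control median, the ranges overlapped, and the fold change was -0.19 ± 0.10 with an interval of -0.39 to 0.011. The list's highest statistic belonged to Fgf14, a partner of sodium channels, at 1.13 ± 0.71 (0.61 without U3 or U9).

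Calcium channel genes had 8 of 15 positive members, median 0.026 (-0.028 without U3). Cacna1c, the pore of the L-type channel Cav1.2, ran 909, 1530.1 and 1945 in UCMS and 544, 1063 and 2218 in controls. It lay above the control median in 8 of 9 UCMS libraries inside a wide control range, was nominal, and had a fold change of 0.52 ± 0.22. The lowest statistic was that of Cacna2d2, an auxiliary subunit, at -0.23 ± 0.19 (0.0014 without U605). Of the calcium buffers, pumps and release channels, 12 of 21 were positive, median 0.056 (-0.0060 without U3). Itpr1, the IP3 receptor, was nominal at 0.21 ± 0.10 but 0.079 without U3. Ryr3, a ryanodine receptor, was nominal at -1.10 ± 0.54 (-0.44 without U604), with 1 UCMS library at 0 and 6 of 9 below the control median.

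The sodium-potassium pump restores the ion gradients after firing. Of the genes of the pump's subunits, 4 of 9 were positive with a median of -0.052 (0.058 without U3). Atp1b3, a beta subunit, lay above the control median in 9 of 9, with 228, 370.0 and 1227 against 0, 205 and 663. It was nominal at 1.35 ± 0.54 and 0.77 without U3.

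On the output side, the axonal and presynaptic genes were bounded closely. All 22 genes of the axon initial segment and cytoskeleton had intervals within 2-fold, and 20 of them within 1.5-fold, around a median fold change of 0.00062 with 11 positive and 11 negative. Over all genes tested, 2693 of 16847 intervals lay within 2-fold. Among genes with a mean of at least 1000 it was 1323 of 1350 (98%), so narrow intervals were usual for abundant genes. Ank2, an adaptor of the membrane skeleton, had the list's highest statistic at 0.076 ± 0.073. The lowest was Sptbn4, the spectrin of the initial segment, at 1269, 2510 and 2946 in UCMS and 1639.8, 2982 and 4466 in controls. All 9 UCMS libraries lay below the control median, in a range that overlapped the controls, with a fold change of -0.28 ± 0.16 (-0.16 without U605) that was not nominal.

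For the 26 genes of presynaptic release the median was -0.013 (0.014 without U3), with 12 positive, 14 negative and 24 intervals within 2-fold. Pclo (Piccolo, chr5:14514918-14863459, plus strand), a scaffold of the active zone, was the only nominal one. It ran 9109.9, 10680 and 12577 in UCMS and 7272, 8557 and 11505 in controls. All 9 UCMS libraries lay above the control median, the upper controls reached into the UCMS range, and the fold change was 0.22 ± 0.083 (interval 0.056 to 0.38). Sv2a, a synaptic vesicle protein, ran 4431, 5033 and 6800.3 against 4580.4, 5981 and 7666, at -0.18 ± 0.11 and below the control median in 8 of 9. Cplx1, a complexin that clamps and times release, was at 0.013 ± 0.091 (interval -0.17 to 0.19). Syt2, the fast calcium sensor of PV terminals, was at 0.036 ± 0.34, with an interval of -0.68 to 0.75.

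On the input side, AMPA receptor and TARP genes had 8 of 14 positive members, median 0.094 (-0.026 without U3). Gria1 (chr11:57011387-57330244, plus strand), which encodes the GluA1 subunit, ran 7237, 8258 and 9127 in UCMS and 7609.7, 9420.2 and 14077 in controls. All 9 UCMS libraries lay below the control median, overlapping the lower controls, and the nominal difference was -0.22 ± 0.086 (interval -0.39 to -0.051) or -0.16 without U3, the control library with the highest value. Gria4, the GluA4 subunit that marks fast excitatory synapses on PV cells, ran 2042, 2582 and 4235 against 2176, 2837 and 5392, at -0.067 ± 0.15. Cnih2, an auxiliary subunit, was nominal at 1.34 ± 0.60 and 0.79 without U3.

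NMDA receptor subunits were split evenly, 3 of 6 positive with a median of 0.029. Grin2d, an interneuron-enriched subunit, stood at 0.12 ± 0.32, Grin2a at -0.11 ± 0.15, and the low gene Grin3a at 1.16 ± 0.77 (0.68 without U3). Metabotropic glutamate receptors had 4 of 9 positive and a median of -0.0064 (-0.23 without U3). The lowest statistic was that of Grm5 at -0.25 ± 0.16 (-0.15 without U608) and the highest that of Grm7 at 1.03 ± 0.63 (0.48 without U3). GABA-A receptor subunits, by which PV cells inhibit one another, had 11 of 14 positive and a median of 0.097, with none nominal. Gabra5 was at 1.26 ± 0.81 (0.81 without U3 or U5), and the extrasynaptic subunit Gabrd at -0.31 ± 0.35 (-0.12 without U3).

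Genes that organise excitatory input to these cells showed no common direction. Erbb4, the neuregulin receptor, ran 6943, 8896 and 10541 in UCMS and 7119, 9261 and 12938 in controls, at -0.048 ± 0.085 with an interval of -0.21 to 0.12. Ntrk2, the BDNF receptor TrkB, ran 4389, 5210.3 and 7738 against 3606, 5047 and 6150.4, at 0.11 ± 0.11. In both, the arms overlapped and neither gene was nominal. The list had 11 of 21 positive members and a median of 0.0090. Nlgn1, a neuroligin, had its lowest statistic at -0.99 ± 0.56 (-0.37 without U605) and Nptx1, a neuronal pentraxin, its highest at 0.62 ± 0.34.

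In the perineuronal net list, 4 of 12 were positive and the median was -0.14, but on the ratio of mean counts 6 were positive and the median was 0.068. Acan, the core aggrecan of the net, was sparse and variable, with 1.19, 151 and 549.7 in UCMS and 69.5, 169 and 939 in controls, at -0.94 ± 0.72 (-0.59 without U601 and -0.42 without U605). Bcan, the proteoglycan brevican, ran 638, 907 and 1766 in UCMS and 817, 1281 and 2156 in controls; 7 of 9 UCMS libraries lay below the control median and the nominal difference was -0.49 ± 0.23. Crtac1, a cartilage-type matrix protein, went the other way, from a control run of 69.5, 231 and 796 to 450.4, 567.7 and 965 in UCMS. It lay above the control median in 9 of 9 UCMS libraries, overlapped the upper controls, and had the list's largest difference, 1.31 ± 0.43 (interval 0.46 to 2.16), and 1.5 without U3.

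Interneuron lineage factors, which fix the identity of the type, had 11 of 20 positive and a median of 0.030. Lhx6 ran 496, 871 and 1480.5 in UCMS and 582, 1025 and 1349 in controls, at -0.12 ± 0.26. Sox6, which acts after Lhx6 in the same lineage, stood at -0.033 ± 0.23. Npas3 was at -1.01 ± 0.75 (-0.46 without U605). Ppargc1a, the co-activator PGC-1α that drives mitochondrial and fast-spiking genes in PV cells, ran 1488, 2297 and 2924 against 1455, 2249 and 3574, with overlapping arms and 0.065 ± 0.17.

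Receptors for neuromodulators and peptides had 24 of 40 positive members and a median of 0.41, against 53.0% positive and 0.048 over all genes. That median was 0.18 without U3, and on the ratio of mean counts it was 0.065 with 22 of 40 positive. Htr2c, a serotonin receptor, had the highest statistic at 1.67 ± 0.89. Gabbr2, a subunit of the GABA-B receptor, had the lowest at -0.20 ± 0.11 (-0.13 without U3), with 4074, 4583 and 5792 in UCMS and 3542, 5344 and 8557 in controls. None of the 40 was nominal.

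Corticosteroid signalling did not separate the arms. Nr3c1, the glucocorticoid receptor, ran 183, 487 and 843 in UCMS and 128, 517 and 841 in controls, at -0.044 ± 0.38. Fkbp5, a co-chaperone induced by the receptor, ran 3.06, 106 and 368 against 0, 63.5 and 244, at 0.93 ± 0.94 (0.55 without U3 or U7) with an interval of -0.91 to 2.77. Of the receptors and responsive genes, 10 of 22 were positive with a median of -0.081 and none nominal. The highest statistic was that of the clock gene Per1, 0.71 ± 0.42 but 0.12 without U3, and the lowest that of Hsd11b1, which regenerates active corticosteroid, at -1.63 ± 0.84 with no read in 8 of 9 UCMS and 6 of 10 control libraries.

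Immediate early genes, which report recent activity, were sparse. Fos had no read in 5 of 9 UCMS and 8 of 10 control libraries, with maxima of 194 and 86.5, and a fold change of 1.14 ± 0.87 (0.66 without U601 and 0.73 without U605). Nr4a1 ran 16.4, 163 and 577 in UCMS and 0, 104 and 370.4 in controls, at 0.88 ± 0.87 (0.58 without U605 and 0.44 without U2 or U3). Npas4, which is tied to calcium entry, was at -1.10 ± 0.94 (-0.69 without U602 or U604) and Ier2 at 1.47 ± 0.92. Of the list, 8 of 23 were positive with a median of -0.13, but 13 were positive by the ratio of mean counts. No member was nominal, and 1 interval lay within 2-fold. For most members a 2-fold change in at least 1 direction was therefore not excluded.

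The lean of cellular stress genes towards higher values in UCMS was lost without U3. The unfolded protein and integrated stress response list had 20 of 29 positive and a median of 0.27, which was 0.0028 without U3. Atf4, the transcription factor at the centre of the integrated stress response, was its nominal member, at 439.7, 928 and 1145 in UCMS and 275, 581 and 1005 in controls. It lay above the control median in 7 of 9 libraries with overlapping arms, and its fold change was 0.62 ± 0.31, 0.61 without U3. Dnajc3, a chaperone that restrains the same pathway, had the lowest statistic at -0.91 ± 0.61 (-0.27 without U605).

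Genes of oxidative defence had 13 of 24 positive and a median of 0.0078 (-0.0011 without U3). Txnrd1, the cytosolic thioredoxin reductase, ran 253, 309 and 574 in UCMS and 0, 210.4 and 639.8 in controls, above the control median in 9 of 9 with overlapping arms. It was nominal at 1.24 ± 0.57, as was the peroxiredoxin Prdx2 at 0.98 ± 0.45, but these were 0.66 and 0.32 without U3. Sod1, the cytosolic superoxide dismutase, lay below the control median in 8 of 9, at -0.42 ± 0.36 (-0.25 without U602).

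Transcripts of the mitochondrial genome were on the high side in UCMS. Of the 13 mitochondrially encoded protein genes, 12 were positive around a median of 0.17, with 12 intervals within 2-fold. Their median ranged from 0.13 to 0.22 when any 1 library was left out. Beside it, the medians of the same genes for stress in pyramidal, SST and VIP neurons were -0.084, -0.088 and -0.0022. Transcripts of 1 organelle genome are cut from shared precursors, so they are not independent of one another, and none passed the test.

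mt-Cytb, a subunit of complex III, ran 9476, 14817 and 17761 in UCMS and 8762, 11798 and 15260 in controls and was nominal at 0.20 ± 0.084. The complex I subunit mt-Nd1 was nominal at 0.16 ± 0.081 (0.11 without U608 and 0.10 without U610), and mt-Nd6, from the other strand, stood at -0.027 ± 0.15. mt-Atp6, a subunit of ATP synthase that was picked out after its values were seen, ran 8451, 15759 and 22342 against 9789, 12498 and 14963, above the control median in 8 of 9. Its fold change was 0.28 ± 0.14, and it was the 1 gene to pass limma when UCMS library U601, the library with its lowest value, was left out (adjusted p 0.0020).

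The mitochondrial rRNA, read separately, took 9.41% ± 1.2 of reads (SD, n = 9) in UCMS and 7.92% ± 1.11 (SD, n = 10) in control libraries. Its lowest, median and highest shares were 7.38%, 10.1% and 10.4% in UCMS and 6.05%, 8.06% and 9.42% in controls, so 6 UCMS libraries lay above the whole control range. The difference of 1.49 percentage points had a two-sided exact permutation p of 0.0143 and an adjusted p of 0.10 over 7 library measures. With 1 library left out at a time, the adjusted p ran from 0.0309 without U602 and 0.0366 without U604, the low UCMS libraries, to 0.189 without U606, and the difference was smallest without control library U9, at 1.28 percentage points. With this share as a covariate the median of the 13 protein genes was -0.087, and the median of all genes moved from 0.048 to -0.10. In that fit limma gave 183 nominally higher and 455 nominally lower genes, called 0 and had a smallest adjusted p of 0.091.

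Nuclear genes of oxidative phosphorylation had 45 of 77 positive and a median of 0.090. The nominal members went both ways: Uqcrb, of complex III, at 1.34 ± 0.54 (0.79 without U9) and Ndufb11, of complex I, at -1.06 ± 0.47 (-0.64 without U605). Glycolysis genes had 14 of 25 positive and a median of 0.040, with 17 intervals within 2-fold. The glucose transporter Slc2a3 had the lowest statistic at -0.38 ± 0.29 (0.027 without U605 and -0.16 without U3) and the isomerase Gpi1 the highest at 0.32 ± 0.17. Cytosolic ribosomal protein genes had 42 of 77 positive and a median of 0.10 (-0.045 without U3). Rps24 was nominal at 1.27 ± 0.50 (0.66 without U3) and Rpl35 stood at -1.37 ± 0.90. Ribosomal protein, ubiquitin and mitochondrial genes have near-identical copies elsewhere in the genome, so their reads may be split between copies.

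Ubiquitin and proteasome genes had 24 of 39 positive and a median of 0.13 (0.078 without U3). By the ratio of mean counts 20 were positive and the median was 0.012. There were 3 nominal genes, all higher, where 2.33% of all genes tested were nominally higher and 1.41% nominally lower. Ubb (chr11:62551171-62553213, plus strand), a polyubiquitin gene, ran 4362, 4795 and 6022 in UCMS and 3010.5, 3739.9 and 7288 in controls. All 9 UCMS libraries lay above the control median, although the highest control exceeded them all, and the fold change was 0.31 ± 0.12 (interval 0.071 to 0.54; 0.27 without U3). Skp1a, an adaptor of SCF ubiquitin ligases, ran 1132, 1597 and 1935 in UCMS and 146, 1309 and 1789 in controls, at 0.75 ± 0.23 and 0.45 without U3. Psma3, a proteasome core subunit, was at 1.42 ± 0.61 (0.88 without U2), and the base subunit Psmc4 at -0.78 ± 0.54 (-0.49 without U603).

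**Figure D3:**
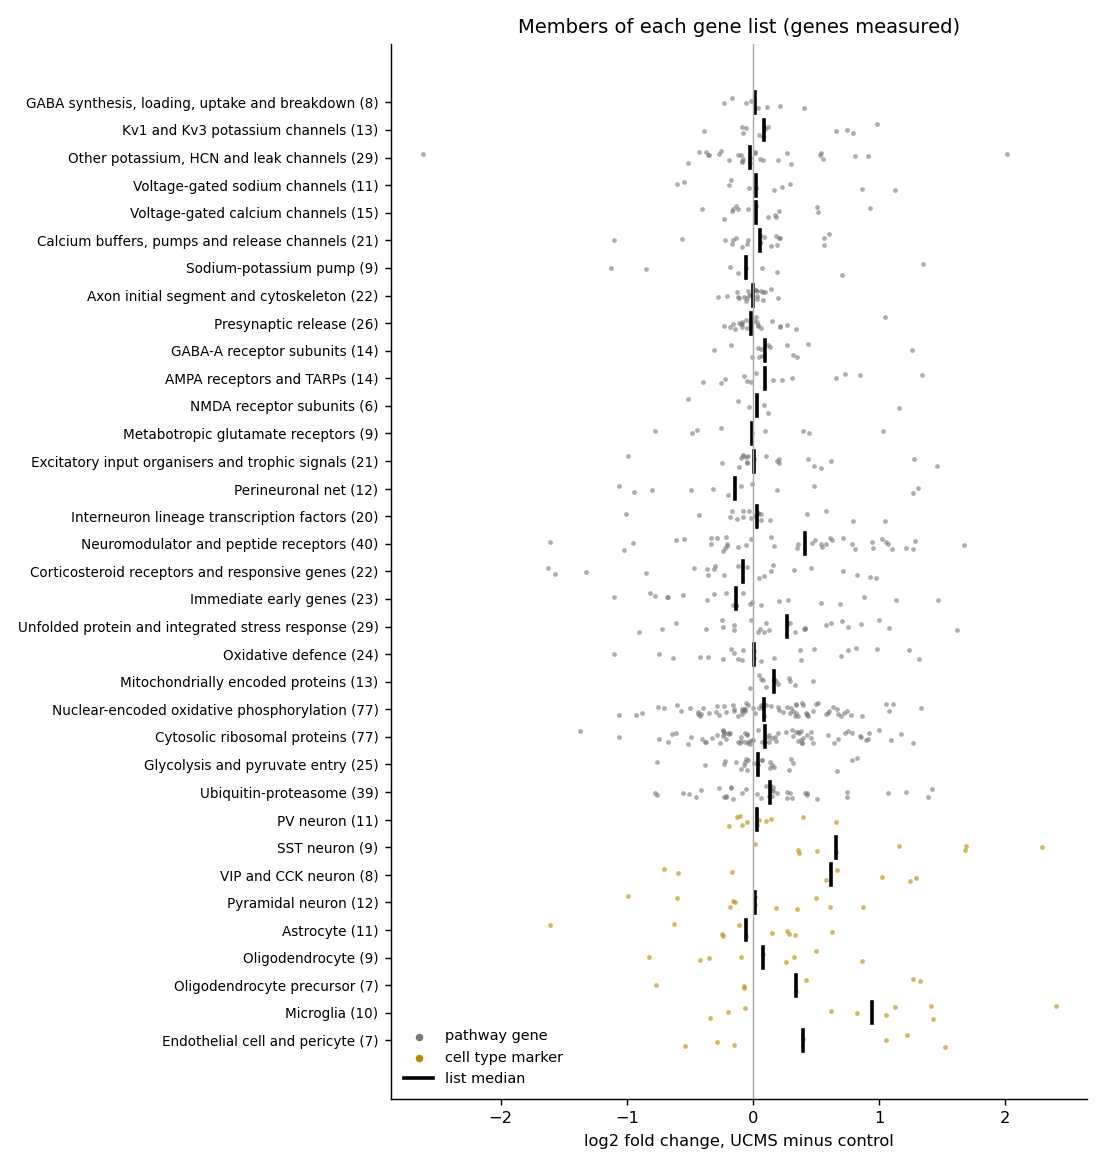
Log2 fold change (UCMS minus control) of every measured member of 26 pathway lists (grey) and 9 cell type marker lists (yellow), with the number measured in parentheses and the list median as a black bar. Axonal and presynaptic genes cluster near 0, while the SST and microglia marker medians lie farthest to the right, at 0.66 and 0.94.

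Among well-measured genes the highest test statistic was that of Map3k1 (chr13:111746428-111808993, minus strand), a kinase of the JNK pathway. It ran 217, 389.7 and 598 in UCMS and 1.13, 112 and 394 in controls. Every UCMS library lay above the control median, the upper controls overlapped them, and the fold change was 2.18 ± 0.65 (interval 0.91 to 3.45), or 1.76 without U3. Rnf115 (chr3:96727664-96791638, plus strand), a ubiquitin ligase, ran 344, 495 and 1096 against 3.99, 197 and 514. It too lay above the control median in 9 of 9, at 1.54 ± 0.47 and 1.03 without U3.

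Adipor2, an adiponectin receptor, ran 224, 355 and 856 in UCMS and 0, 120.3 and 395 in controls, with 9 of 9 above the control median and 2.03 ± 0.64. Leaving out U3, where its value was high, gave 2.27. Guk1, a guanylate kinase, ran 188, 465 and 924 against 3.99, 159 and 539.9, at 1.74 ± 0.56. Stx8, a SNARE of endosomal fusion, ran 77, 236 and 367 against 0, 22.6 and 208, with 2 controls at 0, at 2.84 ± 0.91. Necab1, a neuronal calcium-binding protein, ran 131, 451 and 728 against 0, 128 and 811, at 2.07 ± 0.67. Without U3 the fold changes were smaller, at 1.29 for Guk1, 2.54 for Stx8 and 1.59 for Necab1. In these 3 every UCMS library exceeded the control median, and the highest control lay inside the UCMS range for Guk1 and Stx8 and above it for Necab1.

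The remaining 6 of the 12 highest statistics were Skp1a (above), Bbx, Erlec1, Tmf1, Mcm3ap and Dnaja1. Their fold changes were smaller without U3: Bbx, an HMG-box factor, went from 1.61 to 1.01, and Erlec1, an endoplasmic reticulum lectin, from 1.65 to 1.07. Tmf1, a Golgi protein, went from 1.12 to 0.66, and Mcm3ap, a nuclear export scaffold, from 1.26 to 1.05 (0.81 without U10). For Dnaja1, a co-chaperone of HSP70, the values were 0.83 and 0.51.

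The 12 well-measured genes with the lowest statistics all kept their sign without U3. Pacsin2 (chr15:83375607-83464606, minus strand), a membrane-bending protein of endocytosis, ran 472, 1128 and 1429 in UCMS and 1167, 1546 and 2455 in controls. All 9 UCMS libraries lay below the control median and the upper ones overlapped the lower controls, with a fold change of -0.72 ± 0.23 (interval -1.16 to -0.28; -0.65 without U3). Rai1 (chr11:60105013-60199197, plus strand), a chromatin-bound transcriptional regulator, ran 328, 602.4 and 897 against 535, 1086 and 1427, again below the control median in 9 of 9, at -0.85 ± 0.29 and -0.83 without U3.

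Fam214a (chr9:74952884-75032468, plus strand) came close to separated arms, with 50.5, 236 and 308 in UCMS and 269, 477 and 576 in controls. Its fold change was -1.52 ± 0.51 (interval -2.53 to -0.52) and -1.52 without U3. Gfm2 (chr13:97137937-97181195, plus strand), a factor that recycles mitochondrial ribosomes, ran 54, 199.6 and 358 against 187, 567.9 and 1093, below the control median in 9 of 9, at -1.36 ± 0.50. Purb, a single-stranded DNA- and RNA-binding protein, ran 1051, 2033 and 3267 against 1623, 2786 and 5805, below it in 8 of 9, at -0.46 ± 0.16. Without U3 the fold changes were -1.22 for Gfm2 and -0.35 for Purb.

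Of the other 7 genes with low statistics, Rgs7, a regulator of G protein signalling in neurons, ran 70.5, 409.9 and 1359.8 in UCMS and 319, 824 and 1220.3 in controls, with -0.95 ± 0.34. Dip2c was at -0.62 ± 0.23 (-0.34 without U605), and Xrn1, the cytoplasmic 5′ to 3′ exonuclease, at -1.32 ± 0.49. Vps9d1 was at -1.36 ± 0.51 (-0.74 without U605) and Ell, an RNA polymerase elongation factor, at -2.15 ± 0.77. Ctps2, a CTP synthase, stood at -1.76 ± 0.60 (-1.17 without U606) and Ankrd16 at -1.94 ± 0.67. In each of these 7 at least 7 of 9 UCMS libraries lay below the control median and the arms overlapped. Among the 7323 well-measured genes, 4047 were higher and 3276 lower, and 194 and 117 of these were nominal. Over all genes tested, 53.0% were positive, 2.33% nominally higher and 1.41% nominally lower. Of the well-measured genes, 982 had no read in control library U3, which raises their differences.

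**Figure D4:**
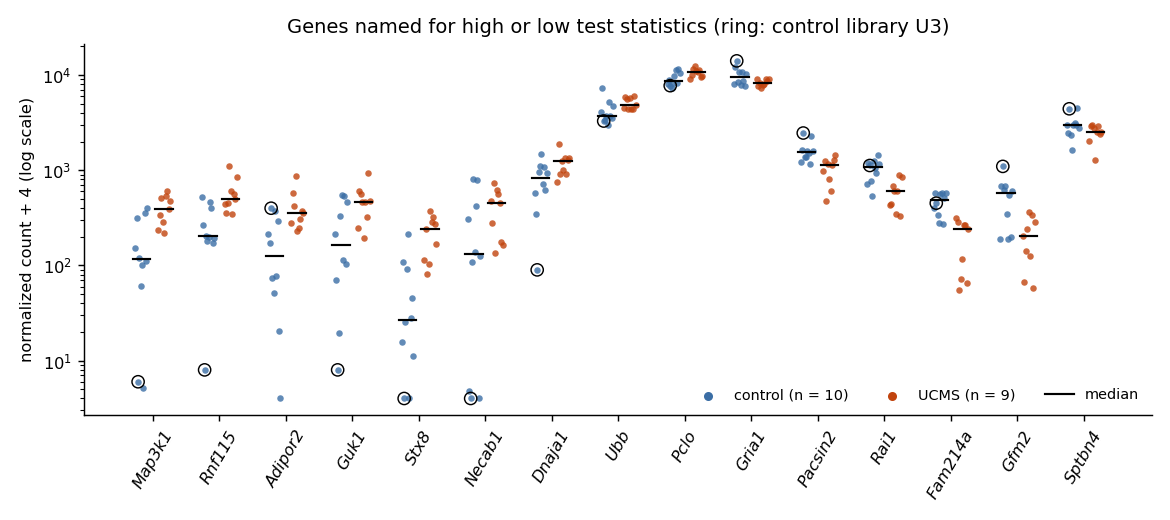
Normalized count plus 4 (log scale) in each PV library for 15 named genes; blue points are control, orange points UCMS libraries, bars medians, and rings mark control library U3. U3 lies at or near the floor for Map3k1, Rnf115, Guk1, Stx8 and Necab1, and within or above the other controls for Pacsin2, Rai1, Fam214a and Gfm2.

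Markers of other cells were measured beside these values, and none of them passed adjustment. All 9 measured SST markers were positive, around a median of 0.66 (0.35 without U3; 0.35 to 1.06 with any 1 library left out), and 7 of 9 by the ratio of mean counts. Npy (chr6:49822710-49829507, plus strand), the neuropeptide of many SST and neurogliaform cells, ran 85.7, 173 and 649.8 in UCMS and 0, 40.7 and 355 in controls, with no read in 3 controls. It lay above the control median in 9 of 9, within a control range that overlapped, and was nominal at 2.30 ± 0.84 (1.91 without U3).

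Crhbp (chr13:95431371-95444924, minus strand), which binds and sequesters corticotropin-releasing hormone, ran 240.3, 325 and 639 in UCMS and 0, 239.5 and 691 in controls. It was nominal at 1.69 ± 0.60 (1.15 without U3), with 9 of 9 above the control median and 1 control above every UCMS library. Sst itself ran 49.4, 233 and 398 against 13.2, 194 and 518, at 0.51 ± 0.65 (0.21 without U3 and 0.17 without U6), and Reln stood at 0.018 ± 0.45. In control SST libraries Npy averaged 2884, Crhbp 580.2 and Sst 12981, so Sst in PV libraries was low beside the type it marks. The summed SST markers had a lowest, median and highest of 1582, 2092 and 3761 in UCMS and 1115, 1661 and 3308 in controls. The part of SST cells in the Npy and Crhbp values was not tested.

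Of the 10 measured microglial markers, 7 were positive around a median of 0.94 (0.78 without U3). That median ran from 0.65 to 1.14 with any 1 library left out and from 0.16 to 1.23 under the other alternatives. The median SE of these genes was 0.98, and 0 intervals lay within 2-fold. P2ry12 (chr3:59216272-59262871, minus strand), a purinergic receptor of microglia, had reads in 7 of 9 UCMS libraries and 2 of 10 controls, with medians of 30 and 0 and maxima of 256 and 39.4. It was nominal at 2.40 ± 0.97. Cx3cr1, another receptor of microglia, was at -0.34 ± 1.02 (-0.64 to -0.050 with 1 library left out), and Itgam had no read in any PV library. The 11 markers summed to 226, 542 and 1023 in UCMS and 110.4, 285 and 831 in controls.

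The other marker lists each had members of both signs. Pyramidal markers had 7 of 12 positive and a median of 0.018 (-0.040 without U3), with sums of 7213, 11151 and 14747 in UCMS and 7458, 11554 and 14182 in controls. Camk2a, a kinase of excitatory synapses, was at -0.18 ± 0.11, Emx1 at 0.87 ± 0.95 (0.44 without U608), and Slc17a7 at -0.14 ± 0.16. Astrocyte markers had 5 of 11 positive and a median of -0.058 (-0.16 without U3). Among them Gfap had the lowest statistic at -1.61 ± 0.92 and the glutamate transporter Slc1a3 the highest at 0.33 ± 0.48 (0.59 without U602 and 0.22 without U605 and -0.34 without U3). Oligodendrocyte markers had 5 of 9 positive and a median of 0.078 (-0.23 without U3). Their lowest statistic was that of the myelin gene Mbp at -0.35 ± 0.33. Their highest was that of Cnp at 0.86 ± 0.78 (0.44 without U3 and 0.42 without U9).

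Precursor markers had 4 of 7 positive and a median of 0.35 (0.076 without U3). Their lowest statistic was that of Olig1 at -0.77 ± 1.02 (-1.10 to -0.23 with 1 library left out). Their highest was that of Olig2 at 1.32 ± 0.85. Endothelial and pericyte markers had 4 of 7 positive and a median of 0.40 (0.27 without U3). Their lowest statistic was that of Tek at -0.54 ± 0.97 (-0.98 to -0.18 with 1 library left out). Their highest was that of Pdgfrb at 1.53 ± 0.89. VIP and CCK markers had 5 of 8 positive, median 0.62 (0.23 without U3). Lamp5 had the lowest statistic at -0.70 ± 1.01 (-1.09 to -0.36 with 1 library left out) and Crh, the stress peptide corticotropin-releasing hormone, the highest at 1.25 ± 0.76 (0.78 without U605). Crh had reads in 4 of 9 UCMS libraries and 2 of 10 controls. Vip fell under the mean of 10 that a gene needed to be tested. PV markers had 6 of 11 positive and a median of 0.036, or -0.059 on the ratio of mean counts.

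**Figure D5:**
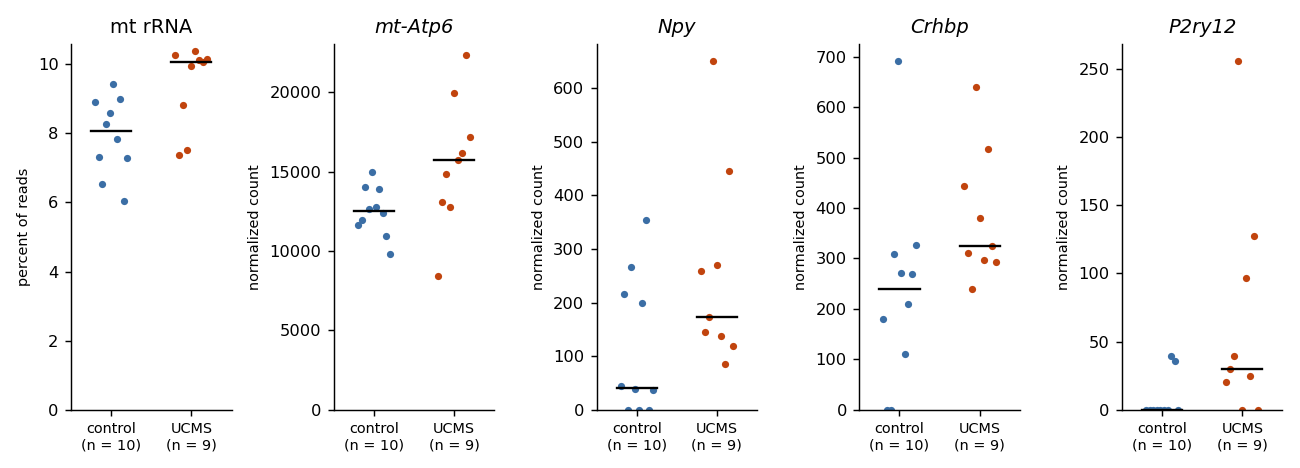
Share of reads on mitochondrial rRNA (percent) and normalized counts of mt-Atp6, Npy, Crhbp and P2ry12 in each PV library; blue points are 10 control and orange points 9 UCMS libraries, bars are medians, and every axis starts at 0. The UCMS median is the higher in all 5 panels, and the arms overlap in each.

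The make-up of the libraries differed little otherwise. Protein-coding genes took 61.4% ± 3.25 of reads (SD, n = 9) in UCMS and 61.2% ± 2.93 (SD, n = 10) in controls, microRNA gene models 23.7% ± 3.76 and 25.1% ± 3.45, and small nuclear RNA genes 0.216% ± 0.0752 and 0.179% ± 0.069. The 4 most abundant features, Gm23935, Gm24270, mt-Rnr2 and mt-Rnr1, took 30.2% ± 2.53 and 29.7% ± 2.54. The smallest adjusted p among these and the totals of reads and genes was 0.726 by exact permutation.

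Libraries of the same arm did not resemble each other more than libraries of different arms did. Over 8379 genes the mean Pearson correlation was 0.634 between arms and 0.628 within arms (0.650 among UCMS and 0.610 among control libraries), a difference of 0.0059 with a two-sided exact permutation p of 0.0509 and an adjusted p of 0.102. With 1 library left out at a time the difference ran from 0.00326 to 0.00993, and its adjusted p was under 0.05, from 0.00436 to 0.036, without any 1 of the control libraries. Those subsets share most of their libraries and are not separate tests. In each of them the arms were equal in size and the difference was smaller, at most 0.00394. Single pairs ranged from 0.438 to 0.794 across 171 pairs that share libraries. The 2 within-arm means differed by 0.041, with an exact permutation p of 0.435.

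To ask whether stress acted differently in PV neurons than in the other types, its effect in PV was compared with its mean effect in pyramidal, SST and VIP neurons over all 79 libraries. Of 17427 genes, limma called 0 (0.0%), with a smallest adjusted p of 0.585 and 896 genes at an unadjusted p under 0.05. Elfn1, a postsynaptic protein that recruits presynaptic mGluR7 and is also in the SST marker list, had the highest statistic, with a difference of 1.78 ± 0.49 (SE) and an adjusted p of 0.761 by limma. Its PV effect was 1.68, against -0.38, -0.077 and 0.16 in pyramidal, SST and VIP neurons. The next were Rasgef1b, a Ras exchange factor, at 2.24 ± 0.63, Rab26, a vesicle GTPase, at 2.70 ± 0.78, Ice1, a subunit of the little elongation complex, at 0.70 ± 0.21, and Rnf152, a lysosomal ubiquitin ligase, at 3.23 ± 0.98.

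At the low end stood Rspo2, a secreted amplifier of Wnt signalling, with a difference of -3.11 ± 0.87 and an adjusted p of 0.77 by limma. In PV libraries it ran 0, 25.4 and 193 in UCMS and 27.8, 153 and 312 in controls, with 8 of 9 UCMS libraries below the control median. Its effects were -2.39 in PV and 0.14, 0.82 and 1.19 in pyramidal, SST and VIP neurons. Cpsf4, a cleavage and polyadenylation factor, differed by -3.13 ± 0.91, Rnf139, a membrane ubiquitin ligase, by -2.81 ± 0.83, Ctps2 by -2.15 ± 0.65 and Rai1 by -0.93 ± 0.28. For Rai1 the effects in the other types were 0.088, 0.089 and 0.069, beside -0.85 in PV. None of these differences passed adjustment, so no stress effect was shown to be particular to PV neurons.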

How the data were processed

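RNA was measured in 19 PV libraries of 130 cells, and in 60 libraries of the other types for the test of the difference. The deposited values are a signal per gene, obtained by the authors from read counts by division with a size factor for each library. The submitters' processing notes name HISAT2, SAMtools 1.3, DESeq2 and GRCm38 (mm10); the read counter, annotation and strand setting were not given in the sources used here, so overlapping and antisense genes cannot be told apart. Dividing by the value of 1 read gave whole reads (tolerance 0.005) for 100% of values in the PV libraries. Without molecular identifiers, reads are not separate molecules. Of 38879 identifiers, 38636 matched GENCODE M21 and 243 did not, while 26 symbols had become dates and 183 were blank.

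Stress was tested with limma 3.58.1 (trend, robust empirical Bayes; R 4.3.3) on log2(normalized count + 4), for genes averaging 10 or more in the 19 libraries. Adjustment was by Benjamini-Hochberg, with 0.05 as the threshold. Each PV library is 1 mouse and no mouse is in both arms; the labels number the mice but say nothing of separate cohorts. The difference from the other types used all 8 groups. Library measures and similarity used two-sided exact permutation over 92378 relabellings (numpy 2.4.6). Alternatives were pseudocounts of 1 and 16, other filters and scalings, edgeR 4.0.16 and DESeq2 1.42.0 on recovered reads, library weights, covariates, a mouse block, and leaving out each library. The limma test of stress in PV neurons and the permutation test of a difference of means were tried on simulated data. The similarity test and the test of the difference from the other types were not. Same-numbered libraries come from 1 mouse, so the numbers pair PV with the other types; over 57 pairs the median correlation of deviations was 0.011, against -0.00043 for different mice.

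The members, gene lists and tests were chosen with earlier results of these data known. Genes named are the 12 highest and 12 lowest statistics among well-measured genes, both extremes of each list, a fixed core of PV genes, and the 5 at each end of the difference from other types. List members with an unadjusted p under 0.05, mt-Atp6, Gm16287, Slc17a7, Vip and the genes in the closing section were added after their values were seen. Some genes that these rules name are not reported here.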

Additional observations from a re-analysis of the deposited data

Results flagged for a closer look

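A library stood far from the rest of its arm in 9 of 66 sets of values checked, where chance flags about 1 in 20. Of these, 3 involve control library U3 and were high there: Ppargc1a at 3574 normalized counts, Acan at 939 and Gria4 at 5392. UCMS library U602 was high for Ntrk2 at 7738 and Gria4 at 4235. Control library U8 was low in its share of reads on microRNA gene models, 16.9%, and high for Fos at 86.5. Nr4a1 was high in control library U9 at 370.4 and Crhbp in control library U5 at 691. No cause was tested for any of these.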

How the results depend on the processing

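The absence of a call held under the pseudocounts, filters, scalings, library weights and covariates tried with limma and in edgeR. The exceptions were DESeq2, with 56 genes called, and the fit of all 8 groups in which the mouse was a random replicate block, with 1, the gene model Gm16287, which had no read in 9 of 10 control libraries. Leaving out 1 library at a time gave 0 to 1 genes, the 1 being mt-Atp6 without U601. For the difference between types, 0 genes passed in any alternative, the mouse as a fixed replicate block included, where the smallest adjusted p was 0.549; of the alternatives the smallest was 0.0949 under quantile normalization. Leaving out U3 and U6, the PV libraries with the fewest reads, was added after seeing the data and also gave 0 genes.

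Among library measures with 1 library left out at a time, the UCMS minus control difference ran from -181.6 to 860.1 for genes with at least 1 read (below 0 without U3 and without U606), from -0.296 to 0.963 percentage points for protein-coding reads, from 1.28 to 1.74 for mitochondrial rRNA and from -0.0786 to 1.09 for the 4 most abundant features. The between-arm minus within-arm correlation ran from 0.00326 to 0.00993.

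Some single genes had the other sign under an alternative, and the cause was not tested. With a pseudocount of 16, the log2 fold change was -0.038 for Reln. Under quantile normalization, the log2 fold change was 0.012 for mt-Nd6 and 0.00619 for Sox6. In edgeR, the log2 fold change was 0.000851 for mt-Nd6, -0.12 for Reln, -0.12 for Slc1a3 and 0.023 for Sox6. In DESeq2, the log2 fold change was -0.18 for Reln, -0.13 for Slc1a3, -0.030 for Syt2 and -0.011 for Cplx1. With library weights, the log2 fold change was 0.068 for Grin2a, -0.22 for Slc1a3 and 0.064 for Sox6. With the mitochondrial rRNA share as a covariate, the log2 fold change was -0.0024 for Gad2, -0.22 for Fgf14, 0.015 for Cacna2d2, 0.14 for Gabrd, -0.11 for mt-Cytb, -0.066 for Rps24, -0.50 for Slc1a3, 0.13 for Kcnc1, 0.091 for Sox6, 0.083 for Acan, 0.27 for Nr3c1, -0.022 for Fos and -0.037 for mt-Rnr1. Without U3 and U6, the log2 fold change was 0.066 for Grin2a, 0.058 for mt-Nd6, -0.48 for Slc1a3, -0.0028 for Kcnc2, 0.011 for Erbb4, 0.045 for Gria4 and -0.21 for Sst. With 1 library left out at a time, the fold changes that changed sign ran for Cacna2d2 -0.31 to 0.0014, for Grin2a -0.18 to 0.0028, for mt-Nd6 -0.090 to 0.047, for Slc2a3 -0.54 to 0.027, for Reln -0.47 to 0.21, for Slc1a3 -0.34 to 0.59, for Pvalb -0.019 to 0.28, for Gad1 -0.0020 to 0.092, for Kcnc2 -0.018 to 0.14, for Kcna1 -0.063 to 0.26, for Syt2 -0.13 to 0.20, for Cplx1 -0.046 to 0.077, for Sox6 -0.13 to 0.063, for Erbb4 -0.090 to 0.0058, for Gria4 -0.15 to 0.035 and for Nr3c1 -0.24 to 0.11. Wide intervals limit what can be said of genes below a mean of 100, and of list members among them. The cause of their spread was not tested.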

Other observations

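Abundant genes are bounded best in these libraries, and those with a mean of at least 1000 were therefore read separately; the genes in this paragraph were picked after their values were seen. Of 1350 such genes, 27 were nominally higher in UCMS and 34 nominally lower, and 47.3% were positive. The shares over all genes tested were 2.33% nominally higher, 1.41% nominally lower and 53.0% positive. The 4 highest and 4 lowest statistics among the well-measured ones not named before follow. Fam49a, an actin regulator that binds Rac, ran 1414, 1675 and 1999.8 in UCMS and 495, 1345 and 2481 in control libraries, above the control median in 9 of 9, at 0.58 ± 0.21 (0.44 without U3). Agap2, a GTPase-activating protein that enhances PI3 kinase, was at 0.31 ± 0.13 (0.19 without U2), Mllt11 at 0.60 ± 0.26 (0.29 without U9) and Mkl2, a co-activator of SRF, at 0.51 ± 0.22 (0.19 without U3). Of the 4 lowest, 3 were below the control median in 9 of 9 libraries. Vps13b, a lipid transfer protein of the Golgi, ran 543, 920.4 and 1166 against 852, 1263 and 2052, at -0.64 ± 0.24. Tsc22d1, a leucine zipper regulator, ran 1030.2, 1622 and 2195 against 1471, 2370.2 and 2811, at -0.45 ± 0.18. Adgrb3, an adhesion receptor of synapses, ran 1054, 1545 and 1958 against 1096, 2378 and 3735, at -0.45 ± 0.19. Tbc1d30, a Rab GTPase-activating protein, was at -0.67 ± 0.26. In all 8 the arms overlapped and none passed adjustment.

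Some features were all or none from library to library, in both arms. On chromosome 1, 6 neighbouring unprocessed pseudogenes (Gm28439, Gm10222, Gm28437, Gm10925, Gm28661 and Gm29216), together spanning chr1:24611535-24616197 on GRCm38, were high in the same 6 PV libraries, 4 control (U1, U2, U3 and U5) and 2 UCMS (U604 and U607). Gm10925 had 4566 to 18614 normalized counts in those 6 and 14.0 to 523 in the other 13. Gm29216 had 8875 to 14509 in the same 6 and 16.4 to 427 in the rest. Gm28439 was the least distinct, with 2654 to 5543 against 6.77 to 2352. The stress fold changes of these features had large errors, as for Gm28661 at -1.63 ± 1.72. Gm24187, annotated as a microRNA on chromosome 13, ran from 19850 to 539860 in 10 libraries, 5 of each arm, and from 55.5 to 1400 in the other 9, a set that differs from the first. The reads behind these features were not examined. Whether the pseudogenes share reads with the mitochondrial genes described above was not tested.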
